A study of Mus musculus with 4 samples.

Results

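The nuclear genes for the subunits of the oxidative phosphorylation complexes were examined in mouse ureter with and without the microRNA genes miR-143 and miR-145. Members were chosen by gene symbol: Nduf with a, b, c, s or v and digits for complex I, Sdha to Sdhd for complex II, symbols starting with Uqcr for complex III, with Cox4i, Cox5, Cox6, Cox7 or Cox8 for complex IV, and with Atp5 for complex V. The rule gave 80 of the 19296 genes measured: 34 of complex I, 4 of complex II, 8 of complex III, 17 of complex IV and 17 of complex V. RNA came from the ureters of 4 males of strain 129Sv/C57BL6 mix, with 1 Affymetrix array per mouse and 500 ng of total RNA each. The 2 wild type mice (miR-143/145+/+) were 4.5 months old and had normal kidneys, and the 2 knockout mice (miR-143/145-/-) were 2.5 months old and had hydronephrosis, a kidney widened by held-back urine. Genotype, age and kidney state therefore cannot be told apart in any value given here. All values are log2 expression values as deposited, and each gene is represented by the brightest of its probe sets that carry only its symbol.

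Oxidative phosphorylation takes place in the inner mitochondrial membrane. Complexes I and II pass electrons from NADH and succinate to coenzyme Q, complex III passes them on to cytochrome c, complex IV gives them to oxygen, and complex V uses the resulting proton gradient to make ATP. Most subunits are encoded in the nucleus, and the genes for them are known to vary together with the mitochondrial content of a tissue, which is high in brown fat, heart and kidney tubules.

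The labels held for the deleted genes. Mir145a measured 8.28 and 8.42 in the wild type mice and 4.60 and 5.02 in the knockouts, and fell by 3.54 on the log2 scale (limma adjusted p = 0.00193), while Mir143 measured 7.64 and 7.85 against 6.48 and 6.53 and fell by 1.23 (limma adjusted p = 0.0148). Smooth muscle genes that mark the ureter wall were bright on every array, with Acta2 between 13.24 and 13.46 and Myh11 between 12.39 and 12.85. Background was set at log2 6.58, the 95th percentile of 1012 olfactory receptor genes, and 79 of the 80 subunit genes had a genotype mean above it; Cox7b2 did not. Array medians were 7.81 and 7.84 in the wild type mice and 7.89 and 7.89 in the knockouts, so both knockout arrays lay higher.

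The subunit genes measured lower in the knockout ureters as a group, by a modest amount, and no single one passed the test. The mean of the 2 knockout mice was below that of the 2 wild type mice for 76 of the 80 genes, where 52.9% of all genes lay on that side; it was 77 with further quantile normalisation and 78 with each array centred on its median, 74 without the second wild type mouse and 73 without the second knockout. The median log2 difference, knockout minus wild type, was -0.30, a median change of -19.0%, and the differences ran from -0.73 to 0.55; the median over all 19296 genes was -0.02, and over the 14208 genes above background 0.03. Averaged over the 80 genes, the log2 value was 11.39 and 11.32 in the wild type mice and 11.19 and 10.91 in the knockouts. With limma and Benjamini-Hochberg adjustment over all genes, 0 of the 80 were lower and 0 were higher at an adjusted p under 0.05, where 0.477% of all genes were lower and 1.90% higher. The smallest adjusted p among them was 0.0583, that of Ndufv3. At an unadjusted p under 0.05, limma had 27 lower and 1 higher, against 13.8% and 12.7% of all genes. Both knockout values lay below both wild type values for 59 of the 80 genes, against 32.0% of all genes, and above both for 1, against 28.0%; the genotypes overlapped for the other 20. In whole tissue, fewer cells of one type and less RNA per cell cannot be told apart.

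**Figure D1:**
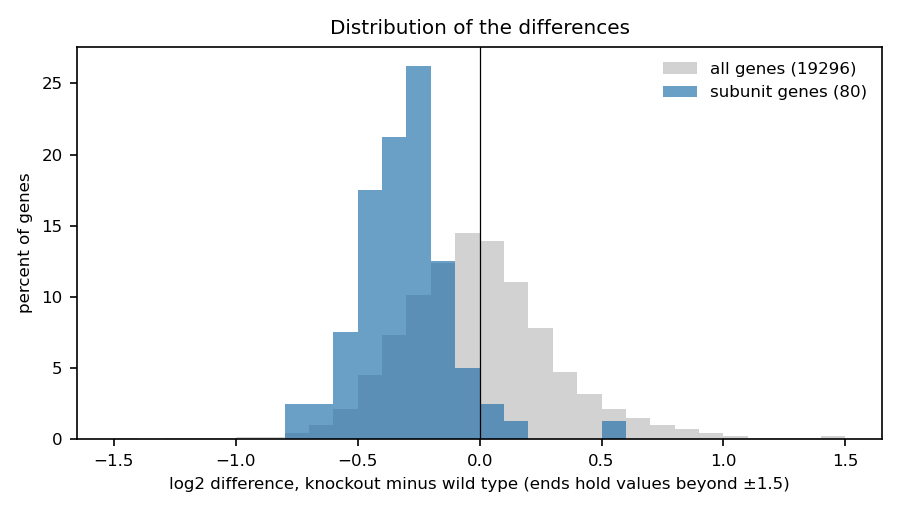
Percent of genes (y axis) by log2 difference, knockout minus wild type (x axis, with values beyond 1.5 either way held in the end bins), for the 80 subunit genes and for all 19296 genes. The subunit genes are centred at -0.30 and all genes at -0.02.

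The knockout mice differed from each other in how low the values were. The second knockout mouse had the lowest value of the 4 for 73 of the 80 genes, compared with 5089 of all 19296 genes. The signed difference of the knockout arrays, first minus second, had a median of 0.27 over the subunit genes. For the wild type arrays, first minus second, this median was 0.08. For the second wild type minus the first knockout it was 0.13. Opposite signs cancel in such a median, so it is not the distance between mice in single genes. The wild type mice measured 10.11 and 9.45 for Ndufa1, and 10.73 and 11.04 for Atp5g1. Without the second knockout mouse the median difference was -0.18, and without the first it was -0.43. Without the first knockout mouse limma called 19 of the 80 genes lower and 1 higher, among 629 lower and 1115 higher of all genes; without the second it called 0 in either direction. A group that is left with 1 mouse in these fits is assumed to vary like the other.

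**Figure D2:**
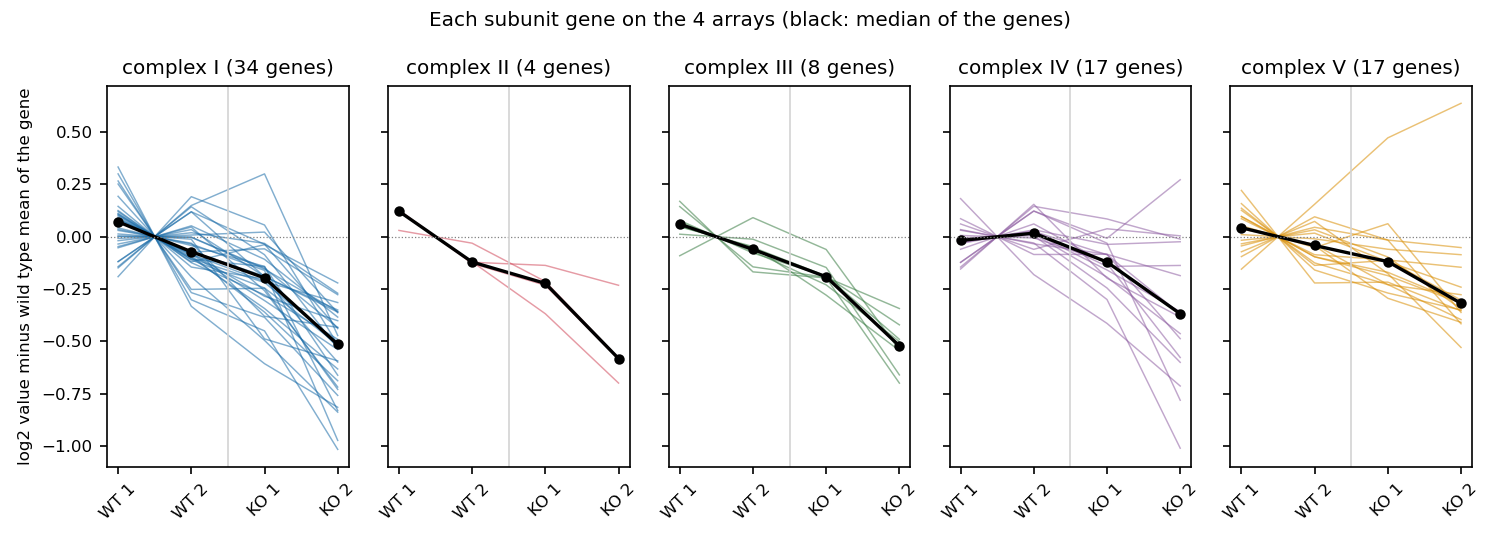
Log2 value of each subunit gene on the 4 arrays (x axis: wild type, WT, 1 and 2; knockout, KO, 1 and 2) minus the gene's own wild type mean (y axis), by complex; coloured lines join the values of 1 gene, black points are medians over the genes, and the mice of a genotype have no order. The coloured lines cross between the wild type arrays because their mean was subtracted, and knockout 2 is the lowest array in 73 of 80 genes.

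Markers of fat cells lay in the same order as the subunit genes. Over 13 adipocyte markers the mean log2 value was 12.76 and 12.68 in the wild type mice and 12.44 and 11.99 in the knockouts, and all 13 were lower on average, with a median difference of -0.51. Of them Cebpa, a transcription factor of fat cell formation, fell by 0.94 (limma adjusted p = 0.0428); Adipoq, the hormone adiponectin, measured 13.19 and 13.13 against 12.74 and 12.13, and Plin1, a lipid droplet protein, 12.75 and 12.63 against 12.37 and 11.68. No adipocyte marker measured lay below 9.88 on any array, and no brown adipocyte marker lay below background.

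Brown fat cells are rich in the oxidative phosphorylation complexes, and their genes were also present on every array. The 10 brown adipocyte markers averaged 10.30 and 10.42 in wild type against 10.40 and 9.86 in knockout, with 6 of 10 lower and a median difference of -0.33. Ucp1, the uncoupling protein that defines brown fat, measured 13.12 and 13.22 in wild type against 13.31 and 13.06 in knockout, a difference of 0.02 (SE 0.13, limma adjusted p = 0.955) whose sign turned when each array was centred on its median (-0.05). Cidea, another brown fat gene, measured 12.65 and 12.65 against 12.38 and 11.84, and Ebf2 and Plin5 fell by 0.89 and 0.80 (limma adjusted p = 0.0403 and 0.0489). The other 4 markers were higher on average, Ucp1 among them. Dio2, which activates thyroid hormone, measured 7.95 and 7.99 against 9.33 and 8.02, and Prdm16, a regulator of brown fat identity, 8.79 and 8.80 against 9.05 and 8.98, both with genotypes apart and neither past the test; Elovl3, a fatty acid elongase, differed by 0.39. Without the second knockout mouse the mean of the 10 markers differed by 0.04, in place of -0.23 with it. Genes of the urothelium, the lining of the ureter, lay the other way: the 10 markers averaged 11.67 and 11.92 in wild type against 12.19 and 12.56 in knockout, all 10 with genotypes apart, and Trp63 rose by 0.83 (limma adjusted p = 0.0486). Kidney markers had a mean over 12 genes of 6.98 and 7.76 in wild type against 9.10 and 7.09 in knockout, highest in the first knockout mouse. On average 11 of the 12 were higher and 1 lower. Lrp2 measured 6.55 and 7.13 against 9.03 and 6.63, and Slc34a1 7.33 and 8.65 against 10.62 and 7.33. Slc12a1 was below background on all 4 arrays, and Pck1, which is in that list, is also made by fat cells. Smooth muscle markers averaged 11.02 and 10.94 in wild type against 11.29 and 11.12 in knockout. Of these 10, 8 were higher and 2 lower, all 10 with genotypes apart. Across all genes, 28.0% were higher and apart and 32.0% lower and apart. Myocd rose by 1.01 (limma adjusted p = 0.0208), while Synm and Des, both proteins of intermediate filaments, differed by -0.54 and -0.30. The markers of skeletal and cardiac muscle averaged 7.60 and 7.60 against 7.57 and 7.54, and 14 of the 18 were above background in a genotype; Myh1, Myh2, Myh4 and Mylpf were below it on all 4 arrays. Of the 14, Tnnt2, the troponin T of heart, measured 11.11 and 10.80 against 11.60 and 11.74, Ckm, the muscle creatine kinase, 9.87 and 9.67 against 10.28 and 9.94, and Myl1, a light chain of fast muscle, 10.07 and 9.98 against 9.92 and 9.42. Mb, the oxygen store myoglobin, lay lower, at 7.74 and 7.73 against 7.31 and 7.15. Of the 18, 13 were lower on average and 0 passed the test in limma. At an unadjusted p under 0.05, limma had 3 lower and 2 higher. That is near the shares of all genes, 13.8% lower and 12.7% higher. Macrophage markers averaged 9.24 and 9.25 against 9.17 and 9.05. The part of fat cells and of the other cell types in the lower subunit values was not tested.

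Complex I, the entry point for electrons from NADH, was lower on average in every gene. All 34 of its genes had a lower mean in the knockout mice, and the second knockout was the lowest array for all 34. For 26 of them both knockout values lay below both wild type values, where 32.0% of all genes did so. In limma 15 were lower at an unadjusted p under 0.05, against 13.8% of all genes. The mean over the 34 genes was 11.19 and 11.08 in wild type against 10.93 and 10.59 in knockout, and the median difference was -0.37. Without the second knockout mouse 31 of the 34 were lower and the median was -0.20, and without the second wild type mouse 33 were lower. The 6 core genes found on the array, which lie in the arm that reaches into the matrix (Ndufs1, Ndufs3, Ndufs7, Ndufs8, Ndufv1 and Ndufv2), had a median of -0.33, and the other 28 a median of -0.38.

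Among the core subunits, Ndufv1 binds NADH and the flavin at the tip of the matrix arm. It measured 12.18 and 11.99 in the wild type mice and 11.72 and 11.40 in the knockouts, a difference of -0.52 (SE 0.15, limma adjusted p = 0.0944). Ndufs1, the largest core subunit and a carrier of iron-sulfur clusters, measured 11.52 and 10.99 against 10.87 and 10.49, a difference of -0.57 (SE 0.21, limma adjusted p = 0.141). In both genes the genotypes were apart, but for Ndufs1 the wild type mice lay farther from each other than the second wild type mouse lay from the first knockout.

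Ndufv3, a small accessory subunit of the flavin-binding tip, had the tightest replicates of the named complex I genes together with Ndufa8. Its values were 10.93 and 10.91 in wild type against 10.43 and 10.33 in knockout, 1.45-fold lower (log2 -0.54, SE 0.12, limma adjusted p = 0.0583). With the dim genes left out before the fit its limma adjusted p was 0.0494, so it then passed. Ndufa8, an accessory subunit on the outer face of the membrane arm, measured 11.44 and 11.37 against 11.03 and 10.97, a difference of -0.41 (SE 0.11, limma adjusted p = 0.0913). The widest difference of the set was that of Ndufa12, an accessory subunit of the matrix arm, with 10.60 and 9.998 in wild type against 9.85 and 9.28 in knockout (log2 -0.73, SE 0.25, limma adjusted p = 0.125); mice of one genotype differed by more than 0.5 in both groups. Ndufa11, an accessory subunit of the membrane arm, had the narrowest difference of complex I. It measured 10.89 and 11.18 in wild type against 11.34 and 10.56 in knockout, so that the knockouts lay on both sides of the wild type mice (log2 -0.09, SE 0.25, limma adjusted p = 0.854); without the second knockout its difference was 0.30. Ndufa4, placed here by its symbol and now counted as a complex IV subunit, measured 11.94 and 11.56 against 11.26 and 10.91 (log2 -0.67, SE 0.18, limma adjusted p = 0.0834).

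**Figure D3:**
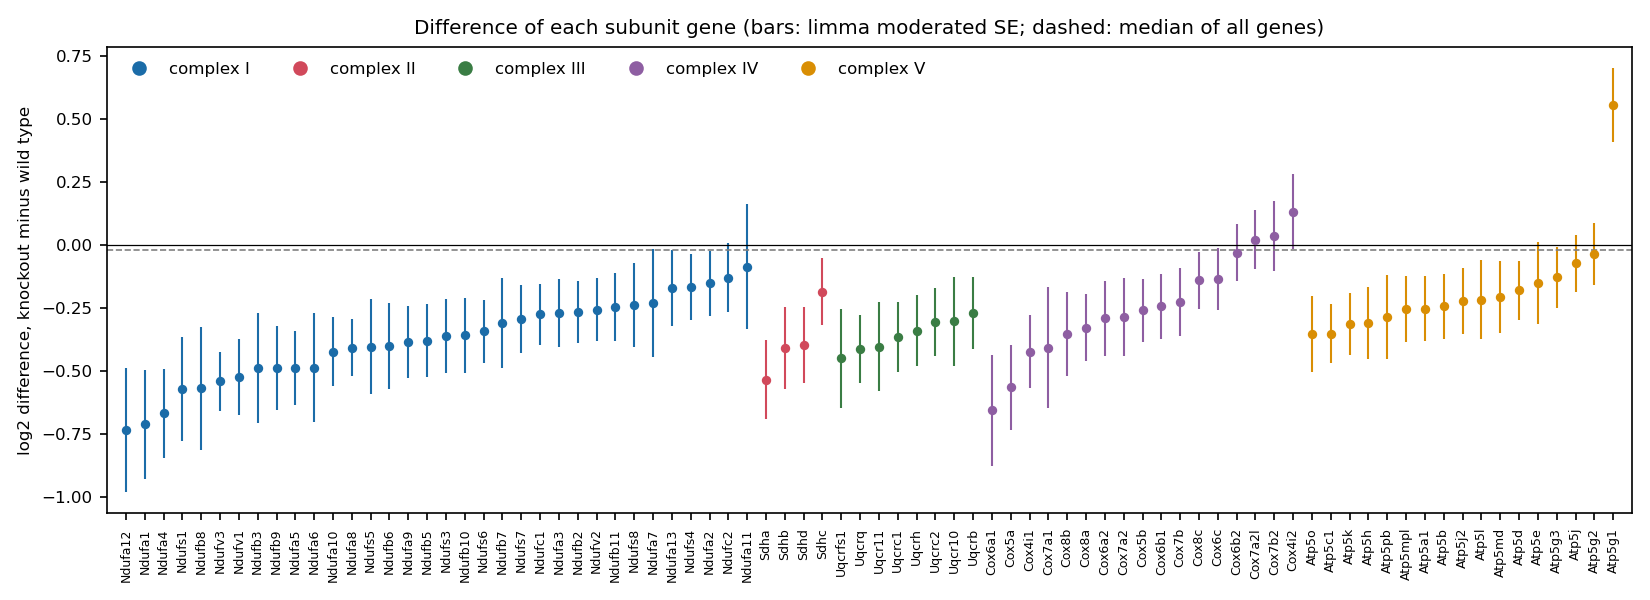
Log2 difference, knockout minus wild type (y axis), of each subunit gene grouped by complex (x axis), with bars for limma's moderated SE and a dashed line at the median of all genes. Points lie below 0 for 76 genes, and Atp5g1 stands highest at 0.55.

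Complex II, succinate dehydrogenase, also works in the citric acid cycle. All 4 of its genes had both knockout values below both wild type values, where 32.0% of all genes did so. The median difference was -0.40. Sdha, the flavin-binding catalytic subunit, measured 12.97 and 12.73 in wild type against 12.48 and 12.15 in knockout (log2 -0.53, SE 0.16, limma adjusted p = 0.0973). Sdhb, the iron-sulfur subunit, measured 12.07 and 11.81 against 11.71 and 11.36 (log2 -0.41, SE 0.16, limma adjusted p = 0.167). The membrane anchors Sdhc and Sdhd hold the complex in the inner membrane. Sdhd measured 11.40 and 11.34 against 11.16 and 10.80 (log2 -0.40, SE 0.15, limma adjusted p = 0.152). Sdhc had the narrowest gap, at 11.91 and 11.67 against 11.65 and 11.56 (log2 -0.18, SE 0.13, limma adjusted p = 0.401), where the second wild type and the first knockout mouse nearly coincided. The complex II median was -0.58 without the first knockout mouse and -0.22 without the second.

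Complex III, which hands electrons from coenzyme Q to cytochrome c, was lower in all 8 genes. In 7 of them the genotypes were apart, where 32.0% of all genes were lower and apart. Only Uqcr10 overlapped, and it was named for that reason after its values were seen. The median difference was -0.35 and the range was narrow, from -0.45 to -0.27. Uqcrfs1, the Rieske iron-sulfur subunit, gave the lower end. It measured 10.81 and 10.48 in wild type against 10.45 and 9.95 in knockout (SE 0.20, limma adjusted p = 0.199), with the second wild type and the first knockout mouse again close together. Uqcrc1, a core protein on the matrix side, measured 12.55 and 12.41 against 12.25 and 11.98 (log2 -0.37, SE 0.14, limma adjusted p = 0.153). Of the small accessory subunits, Uqcrq measured 11.77 and 11.67 against 11.44 and 11.18 (log2 -0.41, SE 0.13, limma adjusted p = 0.118). Uqcrh, the hinge protein beside cytochrome c1, measured 12.38 and 12.28 against 12.14 and 11.84, and Uqcrb gave the upper end of the range at -0.27. For both of these genes, as for Uqcrc1 and Uqcrq, the genotypes did not overlap.

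Complex IV, cytochrome c oxidase, has subunits made in most tissues and forms made in few. The 17 genes had a median difference of -0.26, with 14 lower. In 11 the genotypes were apart, all lower, where 32.0% of all genes were lower and apart. The 9 genes left when the 7 tissue forms and Cox7a2l are set aside were all lower, with a median of -0.29 and the second knockout lowest in all 9. The 7 tissue forms had a median of -0.14, with 5 of 7 lower. They were dimmer as a set, averaging 8.69 and 8.88 in wild type, beside 12.61 and 12.55 for the 9 genes. The bright forms Cox7a1 and Cox8b differed by -0.41 and -0.35. The dimmer Cox6a2, Cox8c, Cox6b2, Cox7b2 and Cox4i2 differed by -0.29, -0.14, -0.03, 0.04 and 0.13, and Cox7b2 was below background. Tissue form and brightness therefore cannot be told apart in these medians. This grouping was made after the values were seen, and the difference between the groups was not tested. Without the second knockout mouse the median over all 17 genes was -0.12.

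Cox4i1 and Cox5a belong to the first nuclear subunits to join the mitochondrially made core of the enzyme. Cox4i1 measured 11.90 and 11.91 in wild type against 11.66 and 11.31 in knockout (log2 -0.42, SE 0.15, limma adjusted p = 0.131). Cox5a measured 11.72 and 11.35 against 11.12 and 10.82 (log2 -0.56, SE 0.17, limma adjusted p = 0.1003). Cox6a1, the common form of an outer subunit, gave the lowest difference of complex IV: 12.52 and 12.46 against 12.19 and 11.48 (log2 -0.66, SE 0.22, limma adjusted p = 0.124). Its wild type mice were within 0.1 of each other while its knockouts were 0.7 apart, so most of the difference sat in the second knockout mouse.

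Several complex IV subunits have a second form whose gene is used in striated muscle, lung or testis. Cox4i2, the form known from lung and from low oxygen, measured 8.32 and 8.56 in wild type against 8.43 and 8.71 in knockout (log2 0.13, SE 0.15, limma adjusted p = 0.602), a difference of -0.01 without the second knockout mouse. Beside Cox6a1, the muscle form Cox6a2 measured 7.28 and 7.59 against 7.24 and 7.06 (log2 -0.29, SE 0.15, limma adjusted p = 0.251). Cox6b1 differed by -0.24 and its testis form Cox6b2 by -0.03. For Cox6b2 the genotypes overlapped, and for Cox6a2 and Cox6b1 they did not.

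Cox7a1 and Cox8b are the forms of heart, skeletal muscle and brown fat, and both were above background on every array. Cox7a1 measured 12.35 and 12.60 in wild type against 12.45 and 11.70 in knockout, a difference of -0.41 that came from 1 knockout mouse (SE 0.24, limma adjusted p = 0.312). Its common partner Cox7a2 measured 11.99 and 11.92 against 11.87 and 11.47 (log2 -0.29, SE 0.16, limma adjusted p = 0.282). Cox8b measured 13.52 and 13.64 against 13.45 and 13.01 (log2 -0.35, SE 0.17, limma adjusted p = 0.226), and the common form Cox8a 12.68 and 12.71 against 12.50 and 12.23 (log2 -0.33, SE 0.13, limma adjusted p = 0.175). For Cox8a and Cox8b the genotypes were apart, as they were for Cox7a2, while Cox7a1 overlapped. The testis form Cox8c differed by -0.14, and Cox7b by -0.23; Cox7b2 was not above background.

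Cox7a2l, which links complexes III and IV into supercomplexes, was 1 of the 4 members whose mean was not lower. It measured 10.05 and 9.92 in wild type against 10.02 and 9.99 in knockout (log2 0.02, SE 0.12, limma adjusted p = 0.926), a sign that turned when the arrays were quantile normalised again (-0.06) or centred (-0.05). A dimmer second probe set of this gene measured 8.37 and 8.16 against 8.57 and 8.88, a difference of 0.46, so the 2 probe sets disagree in size.

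**Figure D4:**
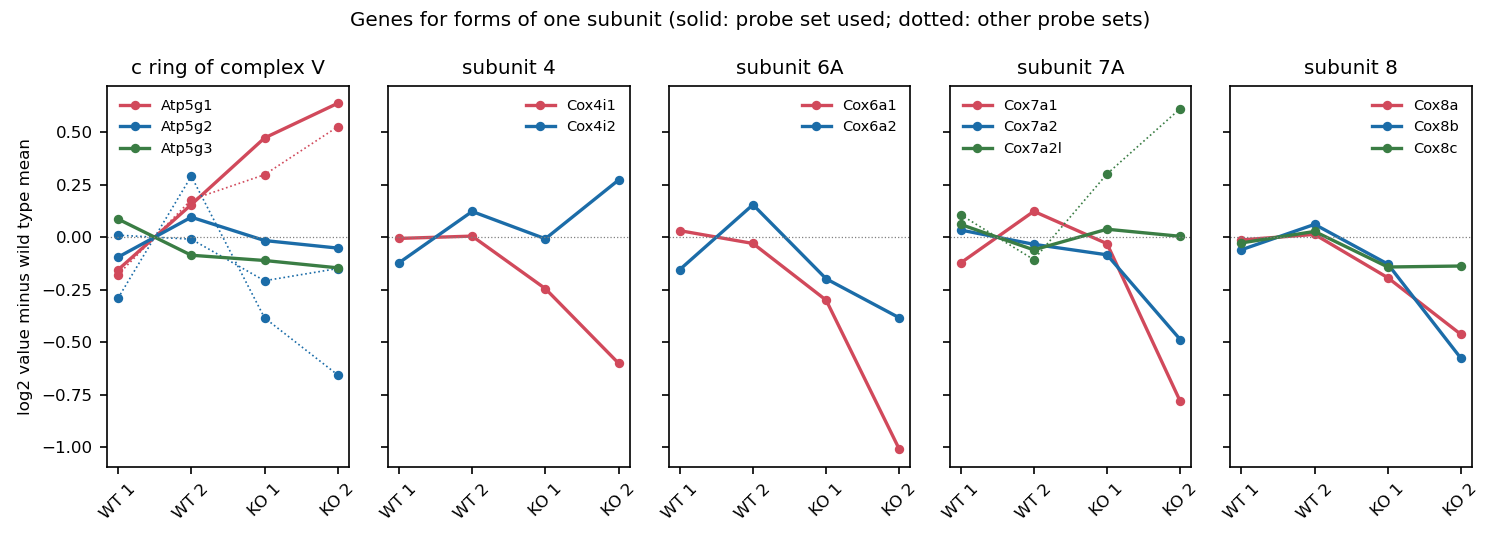
Log2 value minus the wild type mean of the same probe set (y axis) on the 4 arrays (x axis) for genes that encode forms of 1 subunit; solid lines are the probe sets used and dotted lines the other probe sets of the same gene. Atp5g1 lies above 0 in both knockout mice and Cox7a1 is 11.70 in knockout 2, below the 12.45 of knockout 1.

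Complex V, the ATP synthase, had a median difference of -0.22, with 16 of 17 genes lower. Its mean was 11.86 and 11.78 in wild type against 11.72 and 11.57 in knockout. Of its genes, 11 were lower with genotypes apart, against 32.0% of all genes. The 5 genes of the catalytic F1 head had a median of -0.24, the 4 of the stalk -0.30 and the 5 other membrane genes -0.22. The median of complex V was -0.32 without the first knockout mouse and -0.12 without the second.

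In the F1 head, Atp5a1 and Atp5b encode the alpha and beta subunits that form the catalytic sites. Atp5a1 measured 12.78 and 12.59 in wild type against 12.49 and 12.36 in knockout (log2 -0.25, SE 0.13, limma adjusted p = 0.252). Atp5b measured 13.67 and 13.48 against 13.40 and 13.26 (log2 -0.24, SE 0.13, limma adjusted p = 0.271). Atp5c1, the gamma subunit that turns inside the head, measured 12.34 and 12.25 against 12.00 and 11.88 (log2 -0.35, SE 0.12, limma adjusted p = 0.123). All 3 had genotypes apart, and for Atp5a1 and Atp5b the gap between genotypes was narrower than that between the wild type mice. Atp5o, the stalk protein that ties the head to the membrane part, measured 11.38 and 11.53 against 11.28 and 10.93 (log2 -0.35, SE 0.15, limma adjusted p = 0.192). Atp5k, subunit e of the membrane part, measured 9.43 and 9.35 against 9.16 and 9.00 (log2 -0.31, SE 0.12, limma adjusted p = 0.163). Neither overlapped between genotypes.

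The ring of c subunits turns as protons cross the membrane, and 3 genes, Atp5g1, Atp5g2 and Atp5g3, encode the same mature protein behind different targeting peptides. Atp5g1 measured 10.73 and 11.04 in wild type against 11.36 and 11.52 in knockout, the reverse of the order of most members. It was 1.47-fold higher (log2 0.55, SE 0.15, limma adjusted p = 0.0812), the only subunit gene with both knockout values above both wild type values, and its second, dimmer probe set measured 6.53 and 6.88 against 7.004 and 7.23. Atp5g2 measured 11.93 and 12.12 against 12.01 and 11.97 (log2 -0.03, SE 0.12, limma adjusted p = 0.884), with the knockouts between the wild type mice, while its other probe sets differed by -0.18 and -0.52. Atp5g3 measured 11.61 and 11.44 against 11.41 and 11.38 (log2 -0.13, SE 0.12, limma adjusted p = 0.526). The c ring genes are a family with many processed copies, so signal shared between near-identical sequences makes these values uncertain, and the difference between Atp5g1 and the other members was not tested.

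The promoters of the c ring genes are shown because these genes encode 1 protein and yet did not measure alike. Each run is the RefSeq window on GRCm38.p6 from 250 bases before the start site to 50 bases from it, 5′ to 3′ on the minus strand: Atp5g1 at chr11:96075582-96075881, Atp5g2 at chr15:102670998-102671297 and Atp5g3 at chr2:73911277-73911576. Capitals mark matches to the motifs searched, NRF-1 in Atp5g2 and, on the opposite strand, ERR in Atp5g3.
Atp5g1: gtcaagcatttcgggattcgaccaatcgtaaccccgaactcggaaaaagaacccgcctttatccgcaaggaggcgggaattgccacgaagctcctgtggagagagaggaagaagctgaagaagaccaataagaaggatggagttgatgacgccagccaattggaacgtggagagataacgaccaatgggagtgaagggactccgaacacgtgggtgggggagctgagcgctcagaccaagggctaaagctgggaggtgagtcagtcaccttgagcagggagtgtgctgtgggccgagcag
Atp5g2: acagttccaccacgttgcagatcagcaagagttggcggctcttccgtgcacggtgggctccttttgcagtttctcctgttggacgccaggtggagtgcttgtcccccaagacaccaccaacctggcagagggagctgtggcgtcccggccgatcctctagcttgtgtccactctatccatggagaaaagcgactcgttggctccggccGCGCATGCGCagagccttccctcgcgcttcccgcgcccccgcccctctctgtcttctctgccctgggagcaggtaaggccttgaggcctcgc
Atp5g3: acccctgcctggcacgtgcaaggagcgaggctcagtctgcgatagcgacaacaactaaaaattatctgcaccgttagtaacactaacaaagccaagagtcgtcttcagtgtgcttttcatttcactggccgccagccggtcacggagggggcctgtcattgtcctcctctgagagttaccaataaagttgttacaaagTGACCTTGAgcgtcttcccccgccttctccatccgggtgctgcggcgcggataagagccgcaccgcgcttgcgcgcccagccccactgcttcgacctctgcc
In the Atp5g1 window no match to the 4 motifs was found, which says only that these letters are not in it.

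The motifs searched, on both strands and with no mismatch, were GCGCATGC for NRF-1, TCAAGGTCA for ERR, CCGGAAGT for GABP and AAGATGGC for YY1, which are factors known to act on respiratory genes. The NRF-1 letters are nearly their own reverse complement, so matches on both strands can overlap. Windows were found for 66 of the 80 members. NRF-1 was matched in 10 of the 66 members (15.2%) and in 4.36% of the 15138 array genes with a window, and YY1 in 10 (15.2%) against 3.80%. GABP was matched in 5 members (7.58%) against 6.13%, and ERR in 2 (3.03%) against 0.337%. With the 4 motifs pooled, members with and without a match had like medians. The 26 members with any of the 4 had a median of -0.32, all 26 lower, and 40 with none had a median of -0.31, with 37 lower. By motif the median was -0.38 for NRF-1, -0.34 for GABP, -0.28 for YY1 and -0.26 for ERR. The differences between motifs were not tested. One 60-base stretch for each motif shows what a match looks like, again 5′ to 3′ on the minus strand with the match in capitals. They lie at chr2:36049313-36049372 for Ndufa8 (NRF-1), chr9:50603800-50603859 for Sdhd (ERR), chr2:90904688-90904747 for Ndufs3 (GABP) and chr13:73328433-73328492 for Ndufs6 (YY1). All 4 were picked for their matches, each with the smallest limma p of the members with that motif, c ring genes left aside. Capitals that differ from the letters above are a match read on the other strand.
Ndufa8: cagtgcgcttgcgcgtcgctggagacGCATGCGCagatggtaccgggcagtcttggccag
Sdhd: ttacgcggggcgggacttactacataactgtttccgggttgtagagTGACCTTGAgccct
Ndufs3: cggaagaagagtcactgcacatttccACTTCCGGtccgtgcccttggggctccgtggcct
Ndufs6: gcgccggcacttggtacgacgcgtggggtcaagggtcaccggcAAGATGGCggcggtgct

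The other genes of the pathway were taken from lists and read the same way. Subunits that the symbol rule left out lay with their complexes: Cyc1, the cytochrome c1 of complex III, measured 12.50 and 12.20 in wild type against 12.13 and 11.81 in knockout, and Ndufab1, the acyl carrier protein of complex I, differed by -0.46. Ndufa4l2, a relative of Ndufa4 known from low oxygen, differed by -0.06. Of the assembly factors that build the complexes, 44 of 48 listed genes were measured, 39 were lower, the median was -0.18 and 0 passed the test, with 9 lower at an unadjusted p under 0.05, a rule that 13.8% of all genes met. Sdhaf1 and Coa5 had the smallest p, with differences of -0.43 and -0.50. The 13 subunits encoded in mitochondrial DNA are not analysed here.

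In the list of cytochrome c and coenzyme Q genes, 13 of 15 were lower, with a median of -0.22, and 1 passed. Of all genes, 52.9% had a lower mean and 0.477% passed as lower. At an unadjusted p under 0.05, limma had 5 lower and 0 higher, against 13.8% and 12.7% of all genes. The gene that passed was Coq8a, an atypical kinase-like protein needed to make coenzyme Q. It measured 12.06 and 11.84 in wild type against 10.95 and 10.38 in knockout and fell by 1.28 (SE 0.20, limma adjusted p = 0.0356). Without the first or the second wild type mouse, limma called no gene of the whole table, and Coq8a had adjusted p values of 0.183 and 0.216. Coq9, also needed for coenzyme Q, measured 11.34 and 11.48 against 10.92 and 10.44 (log2 -0.73, limma adjusted p = 0.0709).

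The pathways that feed electrons to the chain had medians further from 0 than the chain itself, which was not tested. For pyruvate dehydrogenase and the citric acid cycle all 17 genes were lower, with a median of -0.41 and 14 with genotypes apart. Idh2, which makes NADPH in the mitochondrion, differed by -0.61 (limma adjusted p = 0.0900), and Sucla2, a subunit of succinyl-CoA ligase, by -0.50 (limma adjusted p = 0.0916). For fatty acid oxidation 16 of 17 were lower with genotypes apart, and the median was -0.48. Slc25a20, the carnitine carrier, measured 11.69 and 11.73 in wild type against 11.22 and 11.10 in knockout (log2 -0.55, limma adjusted p = 0.0581). Cpt1a, the liver form of the enzyme that admits fatty acids, lay the other way, at 9.9999 and 10.32 against 10.68 and 10.78 (log2 0.57, limma adjusted p = 0.0750). None of the genes of these lists passed the test. At an unadjusted p under 0.05, limma had 12 lower and 0 higher in the first list. In the second list it had 15 lower and 1 higher. Of all genes, 13.8% were lower and 12.7% higher by that rule, and 32.0% were lower with genotypes apart.

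Other mitochondrial genes were also lower on average in most cases. Mitochondrial ribosome genes had a median of -0.15 over 74 genes, with 64 lower, and Mrpl12 and Mrpl30 at -0.44 and -0.37 had the smallest p. Import and chaperone genes had a median of -0.24 over 20 genes, led by Hspd1 at -0.48 and Timm50 at -0.39. Membrane carriers had a median of -0.11 over 9 genes, with Slc25a4, which exchanges ADP for ATP, at -0.25 and Ucp3 at -0.44. In these 3 lists limma called 0 genes, with 9, 4 and 0 lower at an unadjusted p under 0.05, where 13.8% of all genes were lower; the 9 of 74 ribosome genes were no larger a share than that.

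Regulators of mitochondrial content were mixed: 14 of 21 were lower, the median was -0.11 and 0 passed. At an unadjusted p under 0.05, limma had 5 lower and 1 higher, against 13.8% and 12.7% of all genes. Ppargc1a, the coactivator known to drive respiratory genes, measured 10.17 and 9.56 in wild type against 10.41 and 9.40 in knockout, with the mice of each genotype far apart (log2 0.04, SE 0.33, limma adjusted p = 0.951). Esrra, the nuclear receptor of the ERR motif, measured 9.34 and 9.36 against 9.07 and 8.89 (log2 -0.37, limma adjusted p = 0.121). Ppara, a receptor that governs fatty acid oxidation genes, differed by -0.77 (limma adjusted p = 0.111), and Gabpb1, a subunit of GABP, by 0.35 (limma adjusted p = 0.117). Glycolysis genes had a median of -0.07 over 14 genes, with 8 lower and 0 past the test. In limma 1 was lower and 1 higher at an unadjusted p under 0.05. Those are no larger shares than the 13.8% and 12.7% of all genes. Hk1 and Hk2, the hexokinases that start glycolysis, lay on opposite sides: Hk1 measured 9.54 and 9.58 in wild type against 10.06 and 10.24 in knockout (log2 0.59, limma adjusted p = 0.0565), and Hk2 10.75 and 10.28 against 10.23 and 9.50 (log2 -0.65, limma adjusted p = 0.167).

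**Figure D5:**
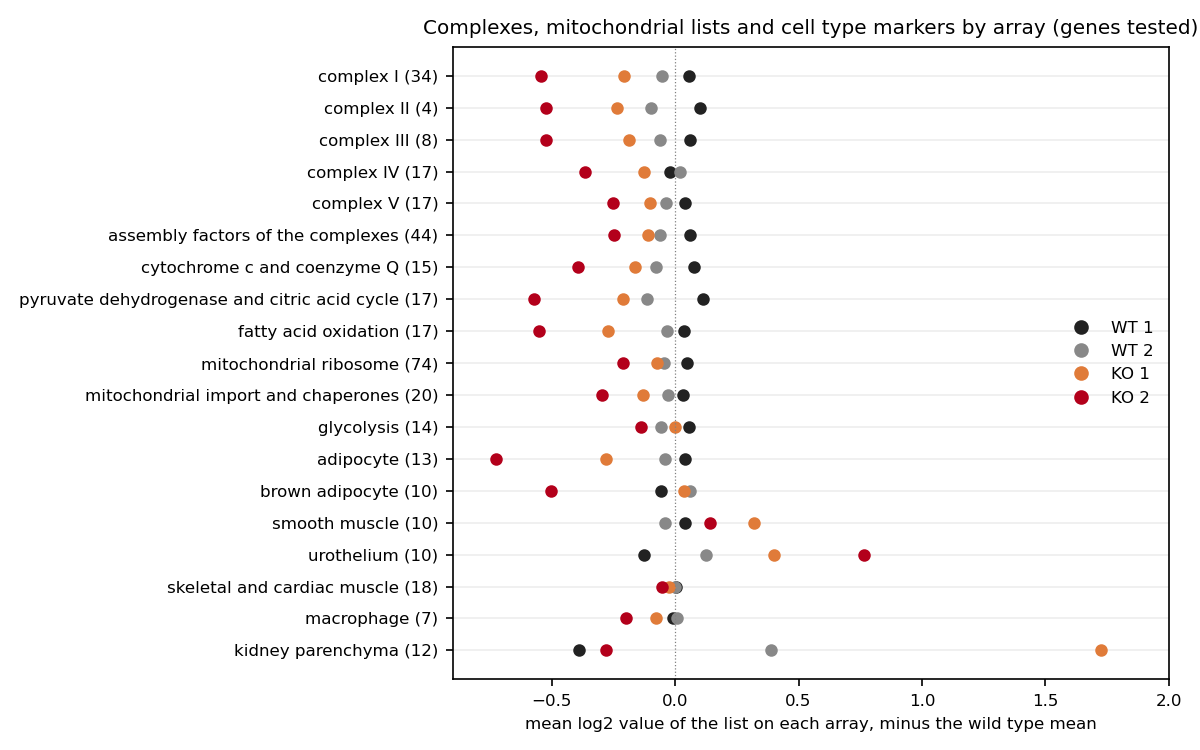
Mean log2 value of each complex, mitochondrial list and cell type marker list on each of the 4 arrays, minus the list's wild type mean (x axis); rows are lists with the number of genes measured. The complexes, the citric acid cycle, fatty acid oxidation and the adipocyte markers have knockout 2 (red) farthest to the left and knockout 1 next, the urothelium lies to the right in both knockouts, and kidney markers lie to the right in knockout 1.

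Of the 80 members, 16 were measured by more than 1 probe set, and their 103 probe sets in all gave 96 lower and 7 higher. For 13 of the 16 all probe sets were lower, for Atp5g1 and Cox7a2l all were higher, and for Atp5h they were mixed. Probe sets of a gene that has processed copies elsewhere in the genome may share signal with them, so these members are uncertain; the 64 members with 1 probe set had a median difference of -0.34. A further 6 probe sets fitted the symbol rule but carried several symbols, and 2 genes found only on such sets, Cox7c and Ndufb4, are not analysed here.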

How the data were processed

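Ureter RNA from 4 mice was labelled for Affymetrix whole-transcript arrays. The authors deposited log2 values for each probe set on each array. According to the submitters' processing notes they used R 2.15.0, RMA and limma 3.12.1. RMA brings the distributions of the arrays closer together, so that a shift common to most genes would shrink. The deposited values were not fully equal in distribution, with array medians from 7.81 to 7.89.

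Of 23309 probe sets, 20728 carried 1 gene symbol, 1174 several and 1407 none, and 20685 matched the gene table by Entrez ID. The brightest set per gene gave 19296 genes, with no filter on dim genes. Knockout was compared with wild type in limma 3.58.1 (R 4.3.3; lmFit, eBayes), with p-values adjusted by Benjamini-Hochberg across the 19296 genes and called at 0.05; SE is the moderated one. The code was tested on simulated data. The labels describe the mice as biological replicates. The p-values rest on the spread between 2 mice per genotype, drawn by limma towards a variance shared across all genes. Having 2 mice per genotype limits the precision.

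The members, the gene lists and the promoter motifs were chosen with earlier results of these data known. Genes were named by a rule: in each complex the 3 of smallest p above background (all 4 of complex II) and the highest and lowest difference, 9 catalytic or core genes, the isoform groups, the 2 of smallest p above background in each pathway list, and a few fixed markers. Alternatives were a replicate block, leaving out dim genes or each mouse, further quantile normalisation, centring, the mean of probe sets, an intensity trend, array weights and, added after seeing the data, members with 1 probe set. Role groups were made after the values were seen. Cell type markers outside the fixed ones, among them Cebpa, Ebf2, Plin5, Dio2, Prdm16, Trp63, Myocd, Synm, Des, Tnnt2 and Mb, were also named then. The fixed markers Acta1, Upk1b and Upk2 are not given singly.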

Additional observations from a re-analysis of the deposited data

How the results depend on the processing

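All members together kept a negative median under every alternative run. The number of subunit genes that limma called was 0 lower and 0 higher, and stayed so with further quantile normalisation, centring, the mean of probe sets, an intensity trend and array weights. With the dim genes left out before the fit 1 was lower. That setting changes both the fit and the number of genes in the adjustment, and their parts were not told apart. Leaving out 1 mouse at a time gave 0 to 19 lower and 0 to 1 higher, and medians of -0.43 to -0.18 over all members, -0.51 to -0.20 for complex I, -0.58 to -0.22 for complex II, -0.52 to -0.19 for complex III, -0.37 to -0.12 for complex IV and -0.32 to -0.12 for complex V; the cause was not tested. With the replicate number as a block 11 were lower and 1 higher, but the numbers share only a label: the replicate differences of the genotypes correlated at -0.03 across genes. Over all genes the block gave 758 lower and 1164 higher, against 92 and 367 without it, and centring gave 148 lower and 245 higher, while the median of all genes moved from -0.02 to -0.09. Of 472 values of single genes under the alternatives, 433 kept their call and sign, 23 gained a call, 2 lost it and 14 turned sign, none of the latter called. The difference of Cox7a2l was -0.0582 with quantile normalisation and -0.0475 centred, that of Cox7b2 -0.032 centred and that of Ucp1 -0.0534 centred. With 1 mouse left out at a time, differences ran from -0.0393 to 0.0815 for Cox7a2l, from -0.1085 to 0.1816 for Cox7b2, from -0.1093 to 0.1398 for Ucp1, from -0.129 to 0.0611 for Atp5g2, from -0.0634 to 0.0026 for Cox6b2, from -0.4714 to 0.3002 for Ndufa11 and from -0.0078 to 0.2719 for Cox4i2. Precision is limited by having 2 arrays per genotype.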
